A study of Bos indicus with 9 samples.

Results

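The genes described here encode RAB and ARF GTPases, the SNAP, STX and VAMP proteins of the SNARE machinery, and synaptotagmins, measured in corpora lutea of cows given equine chorionic gonadotropin (eCG). They were chosen by symbol, as every gene whose single symbol in the array's probe table starts with RAB, SNAP, STX, VAMP, SYT or ARF followed by a digit. The rule found 73 of the 9145 genes with settled values. They comprise 39 RAB GTPases, 5 ARF GTPases, 11 syntaxins, 2 SNAP proteins, 5 VAMP proteins and 6 synaptotagmins. The other 5 are proteins that bind or regulate RAB GTPases and carry the name of their partner. A gene with several probe sets is represented by the probe set with the highest mean over all arrays, which was needed for 21 of the 73.

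A transport vesicle moves between compartments under a RAB GTPase, which marks the membrane and, when loaded with GTP, recruits motors and tethers. The vesicle then fuses when a VAMP protein on it zips together with syntaxin and SNAP proteins on the target membrane, and in regulated secretion a synaptotagmin makes that step respond to calcium. ARF GTPases build the coats that let vesicles bud from the Golgi. Large luteal cells of ruminants store oxytocin in dense granules that fuse with the plasma membrane, whereas progesterone is not stored in granules.

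All animals were Nelore crossbred cows (Bos indicus) aged 2 to 5 years, and all had their cycles synchronised by progesterone devices together with estradiol benzoate. Superovulated cows were given 2000 IU eCG on day 4 of the synchronisation, stimulated cows were given 400 IU on day 8, and control cows had no eCG. Dose and day differ together between the treated groups, so they cannot be told apart. Corpora lutea were collected 6 days after ovulation from 3 animals per group, and each animal has 1 Affymetrix bovine array. How many corpora lutea of a superovulated cow entered one RNA sample is not given in the sources used here.

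Values are signals on what is read here as a log2 scale, and an array carries no read depth, so the number of arrays limits the precision. Signals of different probe sets are not compared with each other. Signals correlated across probe sets at 0.99 to 0.994 between arrays, within and between groups. The steroidogenic markers of luteal cells were present, with STAR, the cholesterol carrier of mitochondria, at a mean of 14.67 ± 0.13 in superovulated, 14.79 ± 0.02 in stimulated and 14.76 ± 0.11 in control corpora lutea (SD, n = 3). Marker lists of immune cells differed between groups. The mean over 12 measured macrophage and myeloid markers, each centred on its own mean over the arrays, was -0.26 to 0.73 in superovulated, 0.18 to 1.11 in stimulated and -1.32 to -0.42 in control animals. The same mean over 4 neutrophil markers was 0.26 to 1.40 in superovulated, -1.75 to -0.94 in stimulated and -0.05 to 1.31 in control animals. Of the RNA controls, the 3' minus 5' signal of cyclophilin was 0.23 to 0.31 in superovulated and 0.24 to 0.32 in stimulated animals, against 0.14 to 0.18 in control animals. That of GST was -0.20 to -0.10 in superovulated, -0.78 to -0.30 in stimulated and -0.73 to -0.37 in control animals, and that of eIF-4E was 2.82 to 3.04 in superovulated, 2.75 to 2.97 in stimulated and 2.68 to 2.79 in control animals. In bulk tissue, fewer cells of a type and less RNA per cell cannot be told apart.

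No gene of the trafficking set passed the test in any comparison. The test was limma with Benjamini-Hochberg adjustment over all 23969 probe sets, with an adjusted p under 0.05 counted as passing. The smallest adjusted p among the 73 was 0.598 for stimulated against control, 0.785 for superovulated against control and 0.381 for superovulated against stimulated. By the same limma test, 0.00417% of all probe sets passed between stimulated and control, 0% passed between superovulated and control, and 0.00417% passed between superovulated and stimulated. In the moderated F test for any difference among the groups, 5 of the 73 genes (6.85%) had an unadjusted p under 0.05, against 7.51% of all genes, and 0 passed after adjustment.

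The counts at an unadjusted p under 0.05 lay near the background of the array in both comparisons with control, and below it between the treated groups. For stimulated against control, 6 of the 73 genes (8.22%) had such a p, against 7.27% of all genes. Of these, 5 were higher in stimulated animals, where 4.20% of all genes were, and 1 was lower, where 3.07% of all genes were. For superovulated against control the count was 4 of 73 (5.48%), against 5.25% of all genes, and all 4 were higher, where 3.12% of all genes were, with 0 lower, where 2.13% were. For superovulated against stimulated it was 2 of 73 (2.74%), against 9.08% of all genes, with both higher, where 4.88% of all genes were. The median log2 fold change of the 73 genes was 0.02 for stimulated over control, 0.03 for superovulated over control and 0.03 for superovulated over stimulated, beside 0.00, 0.01 and 0.01 over all genes. The fold change was positive for 42 of the 73 genes in the first comparison, where it was for 49.2% of all genes, for 46 in the second (53.3% of all genes) and for 42 in the third (53.2%). These comparisons share arrays, so their counts are not independent.

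**Figure D1:**
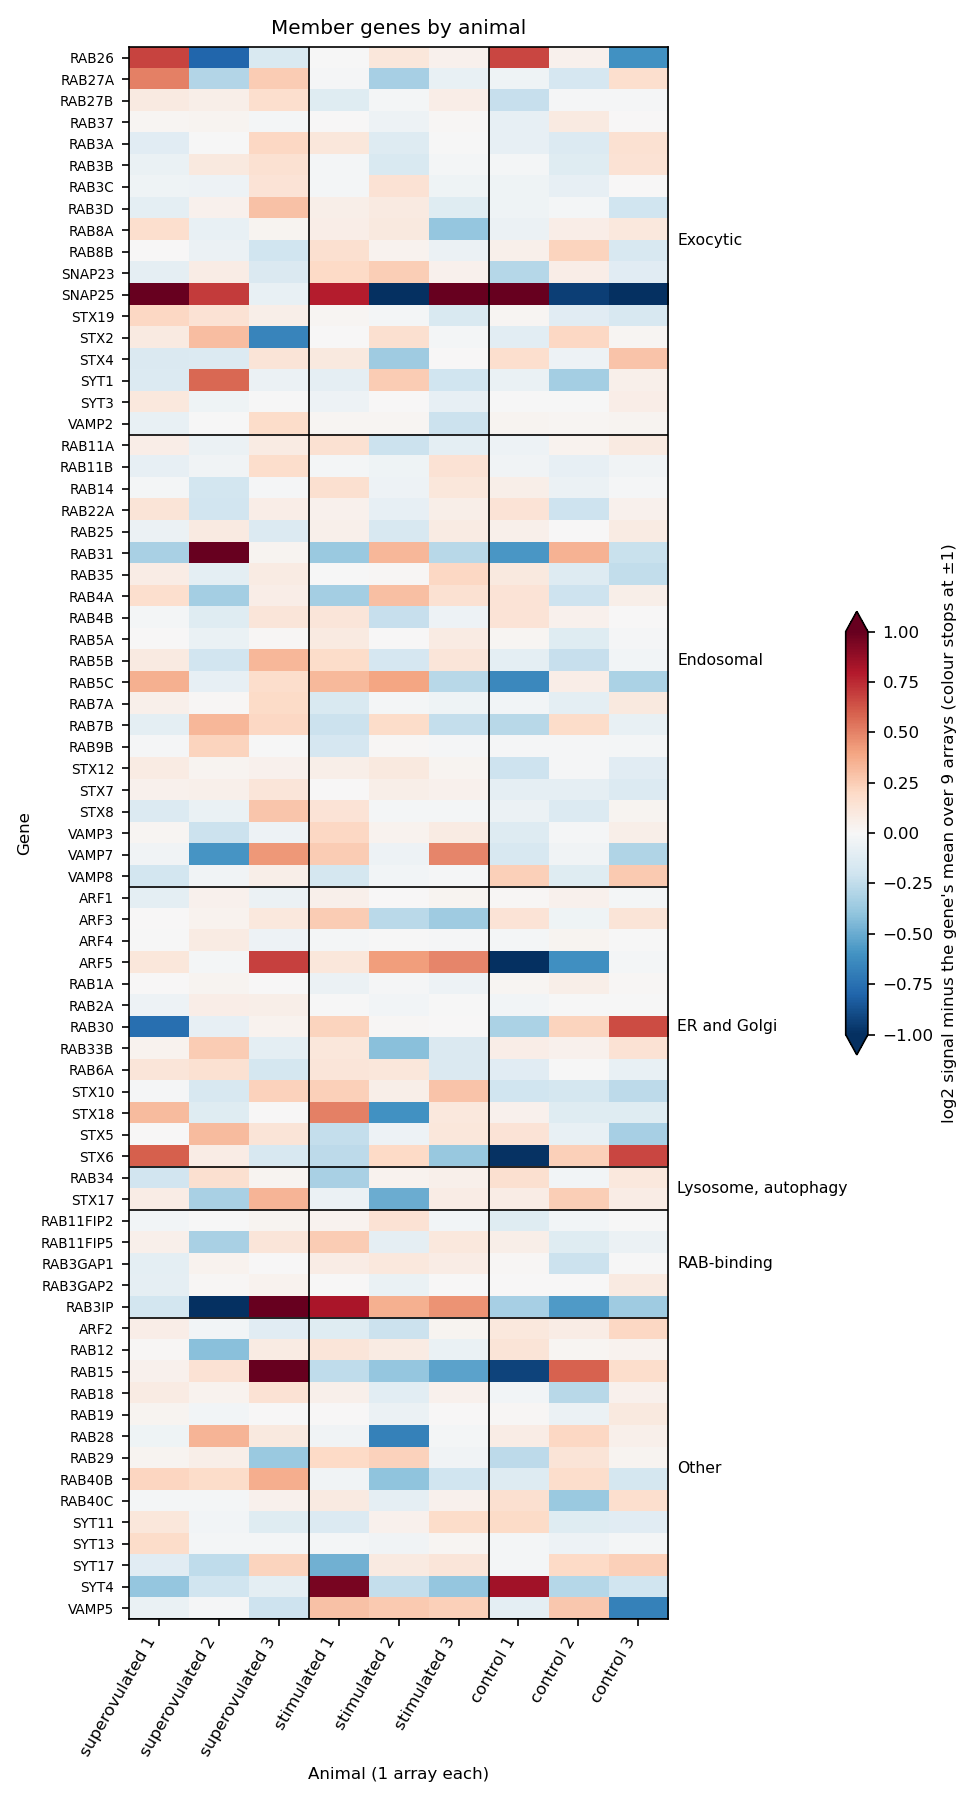
Log2-scale signal of each of the 73 genes on each of the 9 arrays, as the difference from that gene's mean over the arrays, with genes in rows by role and arrays in columns by group. Most rows are pale in all columns, with a median range of 0.45 over the arrays, and SNAP25, with a range of 5.12, has strong colours of both signs within the stimulated and the control group.

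How far an undetected difference could reach is given by the 95% intervals of the fit. The distance from the estimate to either bound had a median of 0.27 log2 units, with 0.12 the shortest and 2.93 the longest. For stimulated against control the interval lay wholly within 1 log2 unit of no difference for 68 of the 73 genes. The number was 64 for superovulated against control and 66 for superovulated against stimulated. Within 0.5 log2 units it lay for 46, 50 and 48 genes in the same order of comparisons. The genes of the set varied little between animals: the median range of signal over the 9 arrays was 0.45, beside 0.57 over all genes, and 13 of the 73 (17.8%) had a range over 1, against 23.7% of all genes. Low signals narrow both the range and the interval, and 10 of the 73 genes had a mean in the lowest 25% of probe sets, below 2.72. Of all 9145 genes, 1221 had.

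The exocytic group takes in the GTPases and SNARE proteins that act where vesicles meet the plasma membrane, and 18 of its genes were measured. Its median log2 fold change was 0.01 for stimulated over control, 0.05 for superovulated over control and 0.07 for superovulated over stimulated. At an unadjusted p under 0.05, 1 of the 18 was higher in each comparison, where 4.20%, 3.12% and 4.88% of all genes were. Lower were 0 of the 18, where 3.07%, 2.13% and 4.20% of all genes were. RAB3B, RAB3C, RAB37, STX19 and SYT1 of this group were in the lowest 25% of probe sets, where differences are narrowed. By far the widest spread in the group, and in the whole set, belonged to SNAP25.

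SNAP25 is a SNARE protein of regulated exocytosis, best known from nerve endings and endocrine cells. Its signal was 10.38, 9.0 and 8.23 in superovulated animals, 9.09, 6.20 and 9.55 in stimulated animals, and 9.66, 7.36 and 5.26 in control animals. Each group held animals with high signals, the superovulated group had none below 8.23, and all groups overlapped. The mean was 9.20 ± 1.09 in superovulated, 8.28 ± 1.82 in stimulated and 7.43 ± 2.2 among control animals (SD, n = 3). The log2 fold change was 1.77 for superovulated over control (SE 1.27, limma adjusted p = 0.859), 0.85 for stimulated over control (adjusted p = 0.936) and 0.92 for superovulated over stimulated (adjusted p = 0.849). Without control replicate 3, the animal at 5.26, the first of these was 0.69 and the second was -0.24. Without stimulated replicate 2, the animal at 6.20, the third was -0.12. Over all genes, 41 had a range over 5 on the 9 arrays, and SNAP25 was the 1 gene of the set among them.

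A second probe set of SNAP25 followed the same animals, at 6.48, 4.74 and 4.57 in superovulated, 4.87, 3.02 and 5.19 in stimulated and 5.54, 3.47 and 2.67 in control animals. On both probe sets, replicate 1 was the highest superovulated and the highest control animal, and replicate 3 was the highest stimulated animal. The gene's paralog SNAP23, which serves vesicle fusion in most tissues, did not share this pattern. Its signal was 11.02, 11.19 and 10.97 in superovulated, 11.31, 11.36 and 11.16 in stimulated and 10.83, 11.18 and 10.999 in control animals. Stimulated animals had the highest mean, with 1 control animal above the lowest stimulated one. The log2 fold change was 0.27 for stimulated over control (SE 0.11, adjusted p = 0.774), 0.06 for superovulated over control (adjusted p = 0.957) and -0.22 for superovulated over stimulated (adjusted p = 0.577). The second probe set of SNAP23 gave 0.31, 0.45 and 0.14 in these comparisons.

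**Figure D2:**
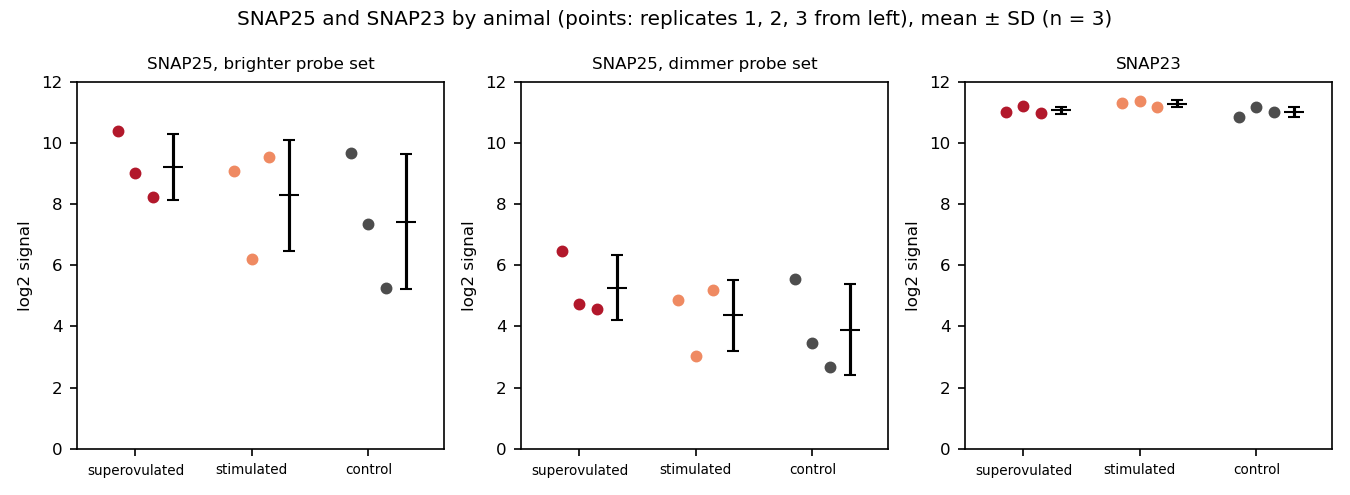
Log2-scale signal of SNAP25 on both of its probe sets and of SNAP23 in each of the 9 animals, grouped as superovulated, stimulated and control, with points for replicates 1 to 3 from the left and bars for the mean ± SD. The animals keep the same highest member of each group on both SNAP25 probe sets, from 5.26 to 10.38 on the brighter one, while SNAP23 stays between 10.83 and 11.36.

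Neuronal markers were read beside SNAP25. The mean over 6 measured neuronal markers, each centred on its own mean, was -0.16 to 0.07 in superovulated, -0.07 to 0.00 in stimulated and -0.01 to 0.15 in control animals. Of these markers 5 were dim, with means of 2.15 to 3.49, and UCHL1, the other, had 11.20 to 12.56 over the arrays. Their part in the SNAP25 values was not tested. The steroidogenic luteal markers lay between -0.14 and 0.19.

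The RAB3 and RAB27 GTPases dock secretory granules. RAB27A, which acts in granule secretion and melanosome transport, had 12.15, 11.35 and 11.90 in superovulated, 11.63, 11.31 and 11.57 in stimulated and 11.60, 11.48 and 11.81 in control animals. The groups overlapped throughout, with log2 fold changes of 0.17 for superovulated over control (SE 0.20, adjusted p = 0.918) and -0.13 for stimulated over control (adjusted p = 0.942). A second probe set of RAB27A gave 0.00 and -0.42. RAB27B, its paralog, had 2.87, 2.84 and 2.95 in superovulated, 2.66, 2.76 and 2.85 in stimulated and 2.55, 2.77 and 2.77 in control animals. All superovulated animals were above all control animals for RAB27B, by 0.19 on the log2 scale (SE 0.08, adjusted p = 0.809), and near the dim end of the array.

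RAB3D, the RAB3 form of exocrine and other non-neuronal secretory cells, had 8.83, 8.97 and 9.22 in superovulated, 8.99, 9.02 and 8.81 in stimulated and 8.89, 8.91 and 8.73 in control animals. It differed by 0.17 between superovulated and control (SE 0.11, adjusted p = 0.857) and by 0.10 between stimulated and control (adjusted p = 0.914), with overlapping groups. RAB3A, the form of synaptic vesicles, lay between 3.21 and 3.55 on all arrays, and RAB3B and RAB3C lay between 1.99 and 2.80. These low signals cannot be told from the array's background here, since the deposited values carry no detection call.

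RAB8A, which carries vesicles from the Golgi to the plasma membrane, lay between 9.22 and 9.77, with log2 fold changes of -0.11 for stimulated over control and 0.00 for superovulated over control (SE 0.14). Its second probe set gave 0.12 and 0.33, with overlapping groups, so no direction is given for RAB8A. RAB8B lay between 11.20 and 11.62. The syntaxin STX4, the plasma membrane partner of SNAP23, had 8.80, 8.81 and 9.07 in superovulated, 9.04, 8.59 and 8.95 in stimulated and 9.11, 8.89 and 9.23 in control animals. Control animals had the highest STX4 mean, with log2 fold changes of -0.18 for superovulated over control (SE 0.15, adjusted p = 0.874) and -0.22 for stimulated over control (adjusted p = 0.869). STX2, another plasma membrane syntaxin, ranged over 0.97, and its lowest value, 9.64, was in superovulated replicate 3.

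STX19, a syntaxin without a membrane anchor of its own, was the 1 exocytic gene with an unadjusted p under 0.05 between superovulated and control animals. Its signal was 2.66, 2.6 and 2.51 in superovulated, 2.47, 2.43 and 2.30 in stimulated and 2.47, 2.34 and 2.29 in control animals. All superovulated animals were above all others, by 0.22 over control on the log2 scale (SE 0.08, adjusted p = 0.798) and 0.19 over stimulated (adjusted p = 0.508). The second probe set of STX19 differed by 0.10 and -0.11 in the same comparisons, and both probe sets were in the dim range. The GST 3' minus 5' signal was likewise higher in all superovulated animals than in all others, and its part was not tested. VAMP2, the vesicle SNARE of regulated exocytosis, lay between 3.07 and 3.47, and the calcium sensor SYT1 between 1.89 and 2.80, with no comparison of either near the threshold (smallest adjusted p 0.776 and 0.870).

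The endosomal group is a list of GTPases and SNARE proteins of uptake, sorting, recycling and delivery to lysosomes, and 21 of its genes were measured. Its median log2 fold change was 0.08 for stimulated over control, 0.08 for superovulated over control and -0.01 for superovulated over stimulated. At an unadjusted p under 0.05, 2 of the 21 were higher in stimulated than in control animals, where 4.20% of all genes were. In superovulated animals 2 were higher than in control animals, where 3.12% of all genes were. Between the treated groups 0 differed, where 9.08% of all genes did. The same 2 genes, STX7 and STX12, gave both counts, and the control arrays are shared by both.

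STX7 is a syntaxin of late endosomes, where it takes part in fusion with other endosomes and lysosomes. Its signal was 11.47, 11.48 and 11.55 in superovulated, 11.43, 11.49 and 11.47 in stimulated and 11.34, 11.34 and 11.29 in control animals. Every treated animal was above every control animal, and the treated groups overlapped. The log2 fold change was 0.18 for superovulated over control (SE 0.06, adjusted p = 0.785) and 0.14 for stimulated over control (SE 0.06, adjusted p = 0.773).

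STX12 is a syntaxin of early and recycling endosomes. Its signal was 9.85, 9.79 and 9.81 in superovulated, 9.82, 9.86 and 9.79 in stimulated and 9.56, 9.75 and 9.65 in control animals. Here too the control animals were below all treated animals, by 0.16 for superovulated over control (SE 0.07, adjusted p = 0.803) and 0.17 for stimulated over control (adjusted p = 0.770). The second probe set of STX12 gave 0.01 and 0.16 and did not separate the groups. The groups that STX7 and STX12 separate are the ones separated by the cyclophilin 3' minus 5' signal, and the myeloid marker mean was also lower in every control animal than in every treated animal. The part of either in these differences was not tested.

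RAB5 GTPases organise early endosomes. RAB5A lay between 11.71 and 11.92 on all arrays, with log2 fold changes of 0.01 for superovulated over control and 0.09 for stimulated over control (SE 0.06). RAB5C had 9.996, 9.558 and 9.820 in superovulated, 9.973, 10.043 and 9.373 in stimulated and 8.995, 9.713 and 9.329 in control animals. The RAB5C means were higher by 0.45 in each treated group (SE 0.24, adjusted p = 0.828 for superovulated and 0.826 for stimulated), with control replicate 2 inside the range of the treated animals. RAB5B differed by 0.20 and 0.17 over control in the superovulated and the stimulated group (SE 0.15), and a dim second probe set gave 0.11 and -0.02.

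RAB7A, which governs late endosomes and lysosomes, had 10.79, 10.75 and 10.93 in superovulated, 10.59, 10.72 and 10.70 in stimulated and 10.71, 10.64 and 10.84 in control animals. Superovulated animals were all above stimulated animals, by 0.15 (SE 0.08, adjusted p = 0.604), and both groups overlapped with control. A second RAB7A probe set had 10.71, 10.62 and 10.78 in superovulated, 10.55, 10.58 and 10.43 in stimulated and 10.72, 10.76 and 10.76 in control animals. On it the stimulated animals were below all others, by 0.18 for superovulated over stimulated (SE 0.07, adjusted p = 0.476) and -0.22 for stimulated over control (SE 0.07, adjusted p = 0.688). The recycling GTPase RAB11A lay between 12.76 and 13.12 and RAB4A, which returns cargo quickly from early endosomes, between 5.43 and 6.07, with no difference over 0.08 between group means of either. RAB31, a GTPase of traffic between the Golgi and endosomes, ranged over 1.66, with 9.13 in superovulated replicate 2 as its highest and 7.47 in control replicate 1 as its lowest signal. The groups of RAB31 overlapped, and its log2 fold change was 0.41 for superovulated over control (SE 0.40, adjusted p = 0.901).

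Among the endosomal vesicle SNARE proteins, VAMP3, of recycling endosomes, had 11.25, 11.02 and 11.18 in superovulated animals, against 11.44, 11.27 and 11.31 in stimulated animals. No superovulated animal reached the lowest stimulated animal, with a difference of -0.19 (SE 0.09, adjusted p = 0.549). VAMP3 in control animals was 11.10, 11.22 and 11.29, which overlapped with both. VAMP8, of late endosomes and of granule secretion in several cell types, had 8.93, 9.08 and 9.17 in superovulated, 8.94, 9.09 and 9.10 in stimulated and 9.35, 8.99 and 9.38 in control animals. Control replicates 1 and 3 were above all treated animals and control replicate 2 was among them, which gave log2 fold changes of -0.18 (SE 0.12, adjusted p = 0.857) and -0.19 (adjusted p = 0.860) for superovulated and stimulated over control. VAMP7, of lysosome exocytosis, ranged over 1.09 and differed by 0.39 between stimulated and control (SE 0.25, adjusted p = 0.863).

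**Figure D3:**
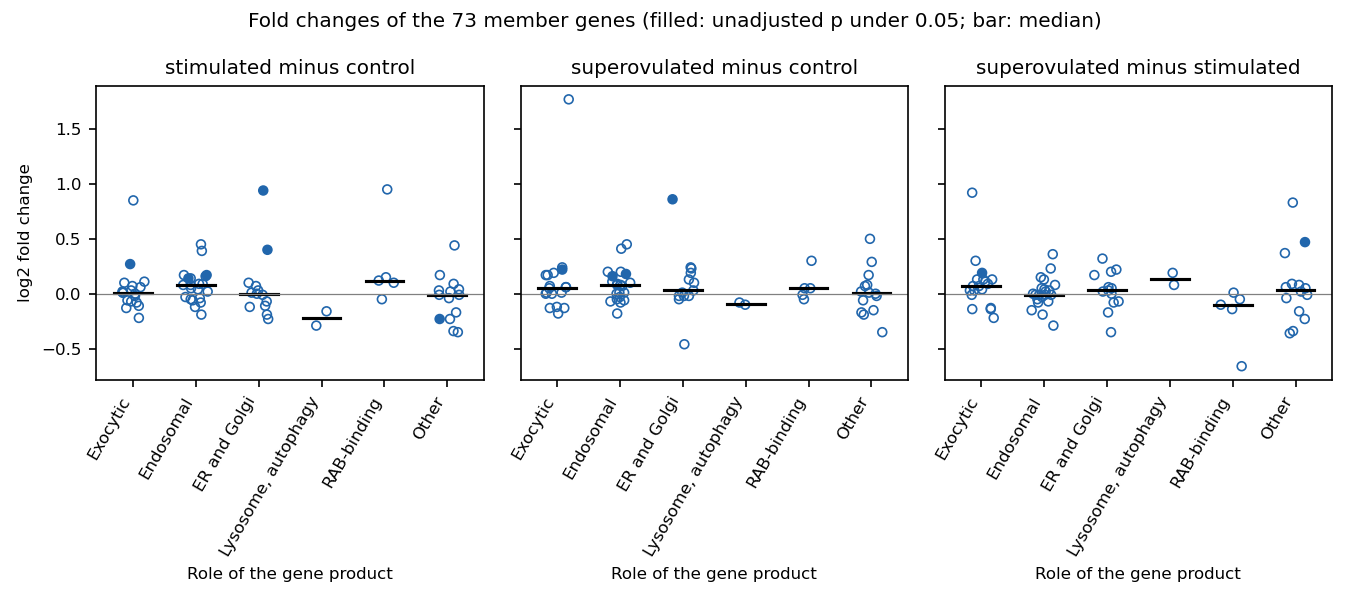
Log2 fold change of each of the 73 genes by role, with 1 point per gene, filled at an unadjusted p under 0.05, and a bar at each role's median. The panels show stimulated over control, superovulated over control and superovulated over stimulated. The medians of the exocytic and endosomal genes lie between -0.01 and 0.08, and SNAP25, at 1.77 for superovulated over control, stands farthest from 0.

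The choice of exocytic against endosomal genes was compared within each animal, as the mean of the 18 exocytic genes minus the mean of the 21 endosomal genes, each gene centred on its mean over the arrays. This difference was 0.17, 0.06 and -0.09 in superovulated, 0.05, -0.13 and -0.02 in stimulated and 0.14, -0.03 and -0.14 in control animals. The groups overlapped, with means of 0.05 ± 0.13, -0.03 ± 0.09 and -0.01 ± 0.14 in superovulated, stimulated and control animals (SD, n = 3). Superovulated exceeded control by 0.06, stimulated minus control was -0.02, and superovulated exceeded stimulated by 0.08, each less than the spread of 0.12 between arrays of a group.

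The spread within each group was smaller without SNAP25. In that version, an alternative chosen after the data had been seen, the values were 0.06, 0.02 and -0.09 in superovulated, 0.01, -0.01 and -0.10 in stimulated and 0.06, 0.02 and 0.02 in control animals. The differences were then -0.04 for superovulated minus control and -0.07 for stimulated minus control, so that the sign of the first turned. The stimulated animals were then all below the control animals, and the superovulated animals overlapped with both. With medians in place of means, also chosen afterwards, they were 0.00 and -0.05. With RAB15, a recycling GTPase outside the list, added to the endosomal genes, again chosen afterwards, they were 0.04 and -0.01, and superovulated minus stimulated was 0.04. The endosomal mean on its own was 0.00, -0.02 and 0.11 in superovulated and 0.02, 0.02 and 0.03 in stimulated animals, against -0.07, -0.04 and -0.04 in control animals. It did not overlap between treated and control animals and differed by 0.08 and 0.07. The lowest treated value, -0.02, lay close to the highest control value, -0.04. Array medians lay between 4.19 and 4.26, and no normalisation was added. The endosomal mean on its own was not recomputed under other settings. The cyclophilin 3' minus 5' signal and the myeloid marker mean separated the same animals, and their part was not tested. Within the superovulated group, replicate 3 had the highest endosomal mean, 0.11, the lowest cyclophilin signal, 0.23, and the lowest myeloid mean, -0.26. An order of 3 animals decides nothing about either, and it was not tested.

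**Figure D4:**
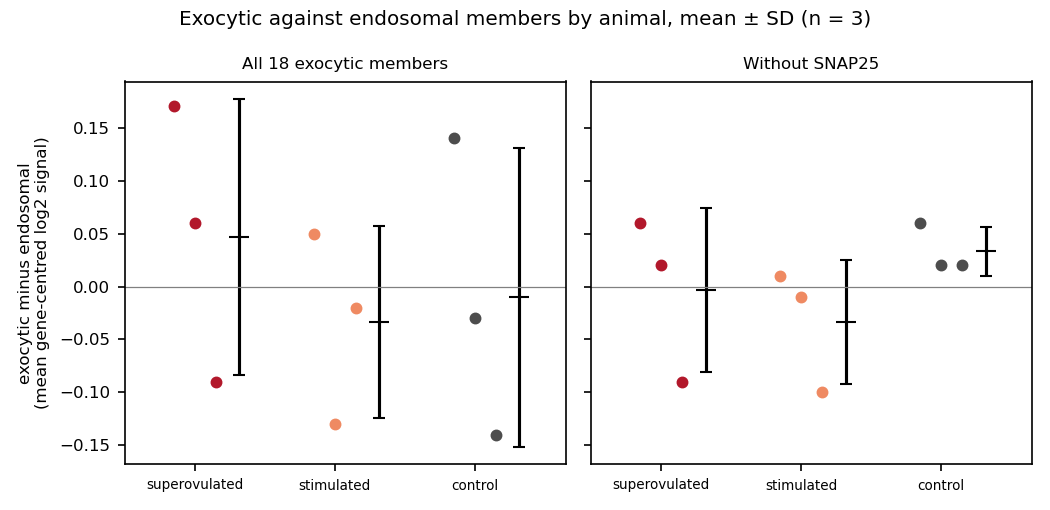
Mean of the exocytic genes minus mean of the endosomal genes in each animal, on the log2 scale after centring each gene, with and without SNAP25, for the superovulated, stimulated and control groups, with points for animals and bars for the mean ± SD. The control animals span -0.14 to 0.14 with SNAP25 and 0.02 to 0.06 without it.

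Of the genes that act between the endoplasmic reticulum and the Golgi, 13 were measured. Their median log2 fold change was 0.00 for stimulated over control, 0.03 for superovulated over control and 0.03 for superovulated over stimulated. At an unadjusted p under 0.05, 2 of the 13 were higher in stimulated than in control animals, STX10 and ARF5, where 4.20% of all genes were. In superovulated animals 1 was higher than in control animals, ARF5, where 3.12% of all genes were.

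STX10 is a syntaxin of the trans-Golgi network that takes part in return traffic from endosomes. Its signals were 7.14, 6.99 and 7.38 in superovulated, 7.39, 7.21 and 7.44 in stimulated and 6.95, 6.98 and 6.89 in control animals. All treated animals were above all control animals, though superovulated replicate 2 lay close to the highest control animal. The log2 fold change was 0.40 for stimulated over control (SE 0.11), and its adjusted p of 0.598 was the smallest of the set in that comparison. For superovulated over control it was 0.23 (adjusted p = 0.811). The second STX10 probe set gave 0.33 and 0.14 in these comparisons, and its groups overlapped, at 5.12 to 5.58 in superovulated, 5.17 to 5.98 in stimulated and 5.09 to 5.37 in control animals. As with STX7 and STX12, the cyclophilin 3' minus 5' signal and the myeloid marker mean separated the same treated and control animals. Their part in STX10 was not tested.

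ARF5 belongs to the class of ARF GTPases that act in the early secretory pathway. It had 4.96, 4.82 and 5.53 in superovulated, 4.96, 5.26 and 5.33 in stimulated and 3.68, 4.23 and 4.82 in control animals. Control replicate 3 tied with superovulated replicate 2, and the stimulated animals were all above the control animals. The log2 fold change was 0.86 for superovulated over control (SE 0.30, adjusted p = 0.798) and 0.94 for stimulated over control (SE 0.30, adjusted p = 0.698). ARF1, which recruits the COPI coat at the Golgi, and ARF4 differed little, with ranges of 0.15 and 0.13 over the arrays. RAB1A and RAB2A, both of traffic between the endoplasmic reticulum and the Golgi, had ranges of 0.11 and 0.12. RAB6A, of traffic within the Golgi, lay between 11.93 and 12.26.

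After ARF5, whose signal ranged over 1.85, the widest ranges among the 13 genes were those of STX6, RAB30 and STX18. STX6, a syntaxin of the trans-Golgi network, ranged over 1.66, and its probe sets disagreed. The brighter gave 0.19 for superovulated over control (SE 0.41, adjusted p = 0.961) and the other gave -1.26, with all superovulated below all control animals, so no direction is given for STX6. RAB30 had 5.48, 6.15 and 6.27 in superovulated animals, against 5.92, 6.46 and 6.89 in control animals, with a difference of -0.46 (SE 0.28, adjusted p = 0.847) and overlapping groups. It was -0.21 without superovulated replicate 1 and -0.71 without control replicate 1. RAB33B, a Golgi GTPase also known for its part in autophagy, had -0.23 for stimulated over control (SE 0.14, adjusted p = 0.855).

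**Figure D5:**
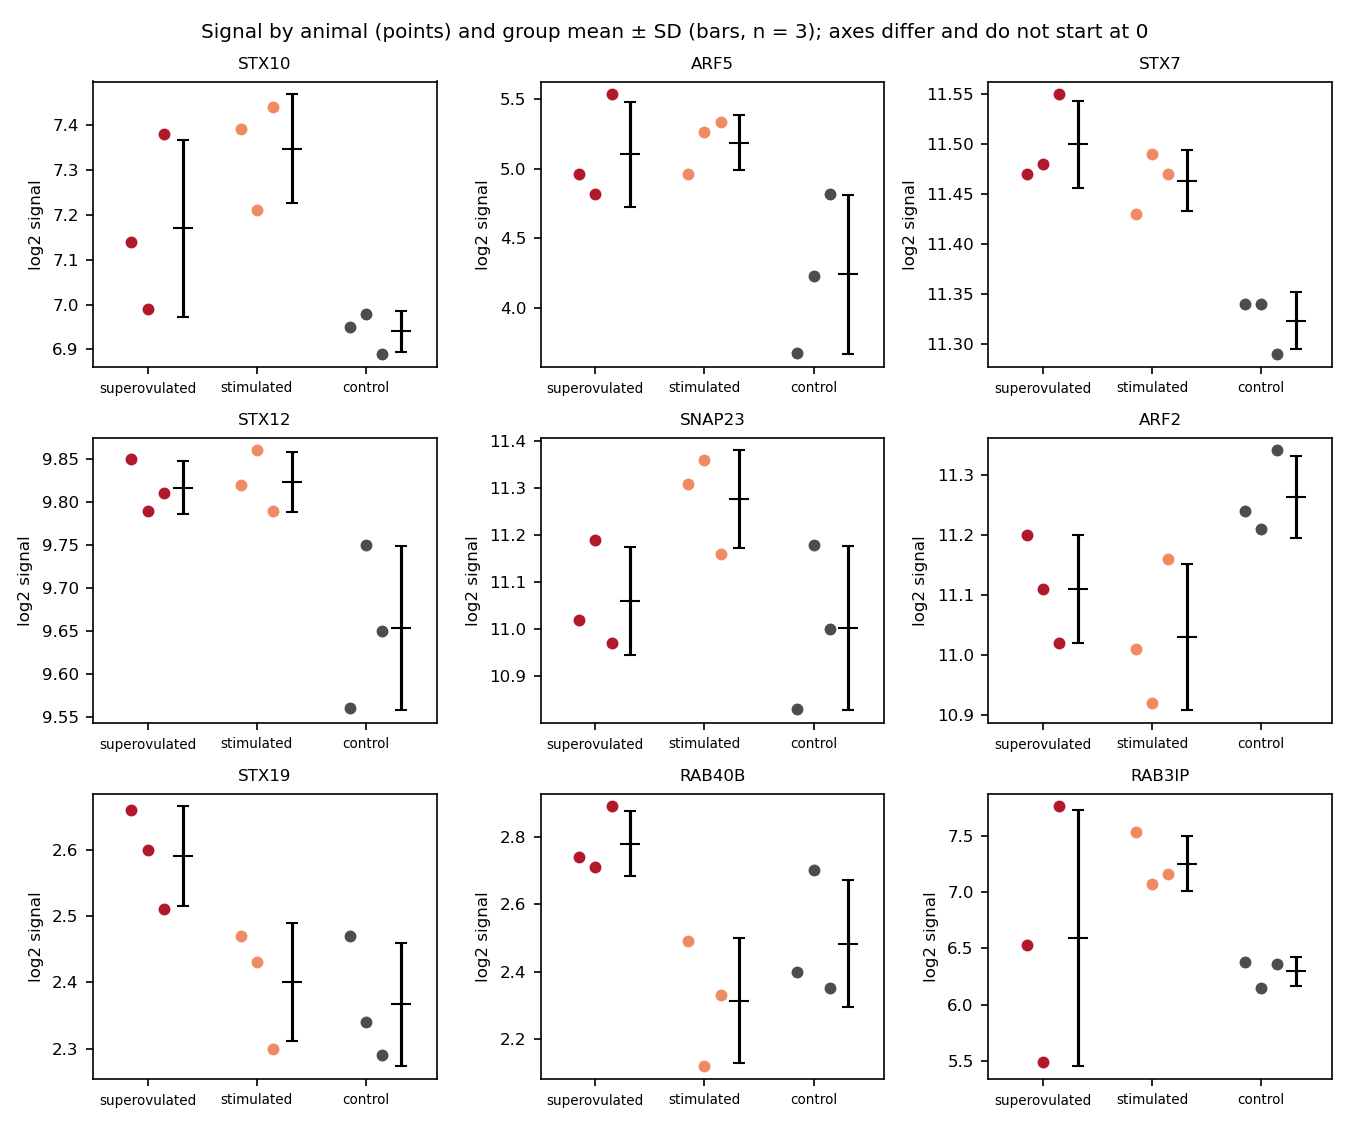
Log2-scale signal in each animal for genes of the set with among the smallest p in a comparison. RAB3IP is shown too, a gene chosen after its values were seen. Points stand for the 9 animals by group, superovulated, stimulated and control, and bars for the mean ± SD. For STX7, STX12 and STX10 all treated animals lie above the control animals, while the vertical scales differ between genes.

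Of the genes outside these groups, 14 in number, ARF2, RAB40B and RAB28 had among the smallest p. ARF2, a close relative of ARF1 that humans lack, was the 1 gene of the set with an unadjusted p under 0.05 and lower signal in stimulated animals. It had 11.20, 11.11 and 11.02 in superovulated, 11.01, 10.92 and 11.16 in stimulated and 11.24, 11.21 and 11.34 in control animals. All treated animals were below all control animals, by log2 fold changes of -0.23 for stimulated over control (SE 0.09, adjusted p = 0.737) and -0.15 for superovulated over control (adjusted p = 0.836). Treated and control animals were also separated by the cyclophilin 3' minus 5' signal and the myeloid marker mean, whose part was not tested. ARF1 and ARF2 are alike enough that probes could read both, which was not checked.

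RAB40B, a RAB protein that joins a ubiquitin ligase complex, had 2.74, 2.71 and 2.89 in superovulated, 2.49, 2.12 and 2.33 in stimulated and 2.40, 2.70 and 2.35 in control animals. Superovulated animals were above all others, at 0.47 over stimulated (SE 0.13, adjusted p = 0.381) and 0.29 over control (SE 0.13, adjusted p = 0.806). The GST 3' minus 5' signal separated the same animals, and its part was not tested. Its signal is in the lowest 25% of probe sets, as is that of STX19, and these were the 2 genes with an unadjusted p under 0.05 between superovulated and stimulated animals. Among the 63 genes above that level the count was 0. Of all genes at any level of signal 9.08% had such a p, and the share of all genes above that level was not counted.

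RAB15, a GTPase of endocytic recycling that was not on the endosomal list, had 4.44, 4.54 and 5.53 in superovulated, 4.14, 4.01 and 3.86 in stimulated and 3.47, 4.98 and 4.57 in control animals. Superovulated and stimulated animals did not overlap (log2 fold change 0.83, SE 0.41, adjusted p = 0.572, and 0.49 without superovulated replicate 3), and the control animals reached into both. RAB28 had 8.86, 8.22 and 8.87 in stimulated animals, against 8.97, 9.10 and 8.94 in control animals, which is a difference of -0.35 on the log2 scale (SE 0.18, adjusted p = 0.826) that was -0.13 without stimulated replicate 2. VAMP5, named for its place in muscle membranes, had 10.44, 10.50 and 10.30 in superovulated animals, against 10.80, 10.77 and 10.75 in stimulated animals (-0.36, SE 0.21, adjusted p = 0.618). The wide control range of VAMP5, 9.83 to 10.78, enclosed every superovulated animal. SYT11, a synaptotagmin that does not bind calcium, lay between 9.81 and 10.14 with no group apart.

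Groups without any overlap were counted over the whole set. Stimulated and control animals did not overlap for 9 of the 73 genes (12.3%), against 12.9% of all genes. Of these 6 were higher and 3 lower in stimulated animals, where 6.51% and 6.38% of all genes were. Superovulated and control animals did not overlap for 7 (9.59%), against 9.58% of all genes, with 6 higher and 1 lower, where 5.50% and 4.08% of all genes were. Superovulated and stimulated animals did not overlap for 8 (11%), against 12.9%, with 5 higher and 3 lower, where 7.16% and 5.76% were. The shares of the set lay near those of the array in each comparison.

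The 5 RAB-binding proteins had a median log2 fold change of 0.12 for stimulated over control, 0.05 for superovulated over control and -0.10 for superovulated over stimulated. RAB3IP, an exchange factor that loads RAB8 with GTP, had 6.53, 5.49 and 7.76 in superovulated, 7.53, 7.07 and 7.16 in stimulated and 6.38, 6.15 and 6.36 in control animals. The stimulated animals were all above the control animals, by 0.95 on the log2 scale (SE 0.48, adjusted p = 0.814), and the superovulated animals held both the highest and the lowest signal, with a range of 2.26 over the arrays. RAB3GAP1, the catalytic subunit that turns RAB3 off, was at 10.47 to 10.50 in stimulated animals, against 10.18 to 10.41 in control animals (log2 fold change 0.15, SE 0.08, adjusted p = 0.814). RAB34 and STX17, of lysosome positioning and autophagosome fusion, differed by -0.16 and -0.29 between stimulated and control animals, with overlapping groups.

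Partners of these proteins were read from 8 lists covering the exocyst, SNARE helpers, effectors of RAB3 and RAB27, regulators of the RAB and ARF cycles, the COPI and COPII coats, and granule content. Of their 77 measured genes, 0 passed in any limma comparison. At an unadjusted p under 0.05 there were 6 (7.79%) for stimulated against control, 2 (2.6%) for superovulated against control and 10 (13%) for superovulated against stimulated. The background in these comparisons was 7.27%, 5.25% and 9.08% of all genes. For stimulated against control 3 of the 6 were higher, for superovulated against control 1 of the 2 was higher, and for superovulated against stimulated 7 of the 10 were higher.

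Of the COPII coat, which buds vesicles from the endoplasmic reticulum, 3 of 10 measured genes were among those higher in superovulated than in stimulated animals. Of all genes 4.88% were. COPII held the most such genes of the 8 lists, and the list as a whole was not tested. SAR1A, the GTPase that starts the coat, had 8.45, 9.24 and 8.64 in superovulated animals, against 7.91, 8.12 and 8.14 in stimulated animals (log2 fold change 0.72, SE 0.20, adjusted p = 0.381). Its control values were 8.19, 8.49 and 8.40, all above the stimulated animals and overlapping with the superovulated ones. SEC23A, of the inner coat, differed by 0.42 (SE 0.12, adjusted p = 0.399) and SAR1B by 0.54 (SE 0.21, adjusted p = 0.488). COPI had 1 of 9 genes in that direction, COPG1, at 0.19 (SE 0.08, adjusted p = 0.504), and another, ARCN1, at 0.22 for superovulated over control (SE 0.06, adjusted p = 0.761).

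Among regulators of the RAB cycle, RABGAP1L, which helps RAB GTPases hydrolyse GTP, had 9.50, 9.11 and 9.26 in superovulated animals, 8.42, 8.51 and 8.5 in stimulated animals and 8.61, 9.23 and 9.54 in control animals. Stimulated animals were below all others. The log2 fold change was 0.81 for superovulated over stimulated (SE 0.22, adjusted p = 0.381) and -0.65 for stimulated over control (SE 0.22, adjusted p = 0.710). In the ARF cycle, ARFIP1 and ARFIP2, which bind ARF GTPases, differed in opposite directions between stimulated and control animals, by 0.34 (SE 0.09, adjusted p = 0.574) and -0.33 (SE 0.12, adjusted p = 0.717). UNC13D, which primes lytic granules of immune cells for fusion, had -1.11 for stimulated over control (SE 0.42, adjusted p = 0.756), with overlapping groups. Between the same groups the marker means differed by -2.17 for neutrophils, 1.41 for myeloid cells and 0.56 for 10 T and NK cell markers. Their part was not tested. The exocyst, which tethers vesicles to the plasma membrane, had 1 of 7 genes at an unadjusted p under 0.05, EXOC8, lower by 0.34 log2 units in superovulated than in stimulated animals (adjusted p = 0.447), and the 4 measured effectors of RAB3 and RAB27 had 0. In that comparison 9.08% of all genes had such a p.

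Among the granule content genes, OXT, the oxytocin precursor, had 13.30, 13.66 and 13.88 in superovulated, 13.56, 13.74 and 13.78 in stimulated and 13.60, 13.66 and 13.76 in control animals, with log2 fold changes of -0.06 and 0.02 over control in the superovulated and the stimulated group (SE 0.14). CHGA, a granule matrix protein, lay between 13.34 and 13.75. SCG5, a chaperone of the convertase that cuts prohormones, had 6.99, 7.01 and 7.80 in superovulated animals, 8.21, 8.91 and 8.74 in stimulated animals and 8.56, 7.28 and 7.20 in control animals. The superovulated animals were all below the stimulated animals (log2 fold change -1.36, SE 0.40, adjusted p = 0.416), and control replicate 1 was among the stimulated values.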

How the data were processed

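Luteal total RNA of 9 cows was hybridised to Affymetrix bovine arrays, per the labels. The deposited table holds 24128 probe sets as a score in no standard unit, since each deposited value has lost its decimal mark. The mark was restored so that values stay below 16, the log2 limit of the scanner. In 15.5% of cells the digits start with 1 and have a second possible reading. Where some arrays of the probe set were not open, the reading nearer to their median was taken. Where all were open, the spread between arrays settled it, at a posterior probability of 0.95. Of the 73 genes, 46 had no open run, 5 were settled by the other arrays and 22 by the spread. Over the array, 48 probe sets stayed undecided. Among the probe sets settled by the spread 0.92 wrong readings are expected. No such number was estimated for those settled by the other arrays. No source used here gives the log base, the way probes were summarised or the normalisation, and no normalisation was added.

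Each of 23969 probe sets entered a linear model in limma 3.58.1 under R 4.3.3, with 1 mean per group on all 9 arrays, which leaves 6 residual degrees of freedom. All tests are 2-sided with Benjamini-Hochberg adjustment, after the steps were tested on simulated data. P-values rest on the spread between animals within groups, with 3 animals per group, pooled over the groups and moderated by limma over all probe sets. Symbols are those of the probe table, in which 13292 probe sets have 1 symbol, 86 several and 10638 none. Of the 73 symbols 71 stand in the RefSeq gene table. RAB9A shares its probe sets with another symbol and was not analysed here. The genes and lists were chosen with earlier results of these data known. Genes given in full are up to 5 per comparison and direction with the smallest p, 22 measured ones of 27 core genes of the pathway, and up to 3 per partner list. Other genes were named after their values were seen (RAB2A, RAB3B, RAB3C, RAB5B, RAB5C, RAB8B, RAB9B, RAB25, RAB31, RAB34, RAB37, ARF4, STX2, STX6, STX18, RAB3IP, RAB3GAP1, SYT3, SYT4, OXT and CHGA among them). Same-numbered superovulated and stimulated animals deviated together (r = 0.21, 0.38 and 0.15). The labels do not say what a number marks, and a fit with the number as a block left the count of passing probe sets in that comparison at 1.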

Additional observations from a re-analysis of the deposited data

How the results depend on the processing

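None of the 36 genes of the set given in full passed under any alternative tried with limma, and their smallest adjusted p over all of them was 0.354. Of 1671 alternative values for these genes, 1661 lay within 1 SD between arrays of the value reported and 10 did not. Most alternatives could not pass that limit. Other model settings and filters leave a fold change as it is, and leaving out 1 animal shifts it by at most 1 SD. No conclusion on stability is drawn from this count. The sign turned in 99 of the alternative values, spread over 43 of 108 fold changes, SNAP25 for stimulated over control among them, so directions of small differences are not stable. Counts of all passing probe sets were small and moved. For superovulated against stimulated the count was 1, and it was 2 after quantile normalisation, 2 with probe sets without any open run of digits, and 1 to 3 when animals were left out in turn, with 3 without superovulated replicate 1 and 2 without superovulated replicate 3 or stimulated replicate 3. For stimulated against control it was 1, and it was 3 with the replicate number as a block and 0 to 4 when animals were left out, with 4 without superovulated replicate 3, 0 without stimulated replicate 3 and, leaving out control replicate 2, 2. For superovulated against control it was 0, and it was 1 with these groups fitted alone and 0 to 1 when animals were left out, with 1 without stimulated replicate 3. The F test gave 1, and 1 to 2 when animals were left out, with 2 without superovulated replicate 3 or stimulated replicate 3. Deviations of same-numbered animals correlated at 0.16, 0.28 and -0.04 between stimulated and control and at 0.09, 0.35 and 0.16 between superovulated and control. Those of differently numbered animals correlated at -0.29 to 0.17 and at -0.36 to 0.25. Whether the number pairs animals cannot be told from these values, and the main fit does not use it. The median log2 fold change of the set stayed between 0 and 0.05 in all comparisons, and the exocytic minus endosomal difference between -0.09 and 0.05 (stimulated minus control), -0.04 and 0.13 (superovulated minus control) and 0.02 and 0.15 (superovulated minus stimulated). Averaging all probe sets of a gene gave 0.25 for SNAP23 and 0.08 for STX12 for superovulated over control. Signal near the array's background limits what can be read from the 10 dimmest genes, RAB3B, RAB3C, SYT1, STX19 and RAB40B among them.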

Other observations

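SYT4, a synaptotagmin of dense-core vesicles, has a second probe set whose values stayed undecided. Its settled probe set, in the lowest 25% of probe sets, had 2.2, 2.39 and 2.49 in superovulated, 3.54, 2.35 and 2.2 in stimulated and 3.43, 2.30 and 2.39 in control animals, so that replicate 1 of the stimulated and of the control group stood above the others. On the undecided probe set the digits of the same 2 animals can be read as 1.07 or 10.65 in stimulated replicate 1 and as 1.01 or 10.12 in control replicate 1, while the other 7 arrays lay between 2.80 and 3.10. Neither reading was used.

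CPE, the carboxypeptidase that trims prohormones in granules, had 4.97, 5.25 and 5.43 in superovulated animals, against 5.35, 3.84 and 3.69 in stimulated animals and 4.40, 4.52 and 4.70 in control animals. Between superovulated and stimulated animals CPE and SCG5, both of the granule list, differed in opposite directions, by 0.92 (SE 0.40) and -1.36 (SE 0.40), and neither passed with limma.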
